A study of Mus musculus with 6 samples.

Results

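The genes described here are 39 genes of lymphocytes and of the lymph node, taken by their symbols from a given list: 11 B cell genes, 16 T cell genes, 3 genes of lymphocyte homing and survival, 4 genes of natural killer (NK) and other cytotoxic cells, and 5 genes of lymph node stroma and vessels. All 39 were among the 36144 gene symbols of the authors' table, and all 39 had counts. The data are bulk RNA-seq of whole inguinal white adipose tissue (iWAT), the subcutaneous fat depot of the groin, from 10-week-old female mice on the C57BL6/J background that were fed freely. The 3 Cebpa_fl/fl mice were Cre-negative and carried 2 floxed alleles of *Cebpa*, the gene of the adipogenic transcription factor C/EBPα. The 3 Cebpa_ASKO mice carried the same floxed alleles and the AdipoQ-Cre transgene. This Cre is driven by the *Adipoq* promoter, so the deletion is aimed at adipocytes. *Cebpa* in lymphocytes and stromal cells of the depot was not measured. The paper states that committed preadipocytes already express *Adipoq* before they form lipid droplets. Per the labels, the inguinal lymph nodes were taken out of the depots of every mouse, and all 6 libraries, each of 1 mouse, belonged to 1 batch. The methods of the paper describe a weighed piece of the depot for bulk RNA-seq and do not mention the nodes there, so how completely they were removed is not known from these sources.

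B cells and T cells recognize antigen through receptors that each cell assembles from variable (V) segments and a constant region, and they pass the receptor's signal on through CD79 and CD3 proteins. In a lymph node, chemokines made by stromal cells sort both cell types into follicles and T cell zones, and lymphocytes enter from the blood through high endothelial venules, whose surface carries adhesion molecules for them. The mouse inguinal fat pad surrounds such a node, and it also holds lymphocytes of its own between the adipocytes. In bulk tissue, fewer cells of a type and less RNA per cell cannot be told apart.

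Of the 39 genes, 27 have a window in the RefSeq promoter table (GRCm38.p6, 250 bases before to 50 bases after a start), with 38 windows between them. A stretch is shown for *Madcam1* and *Ltb*, which are among the 12 genes whose Cebpa_ASKO libraries all lay below the controls, and for *Glycam1*, which separated 1 library from the rest. *Ncr1*, also among the 12, holds the letters marked in *Madcam1* and *Ltb* and is not shown. A link between these letters and the genotypes was not tested. Each stretch is on the gene's own strand and ends before the annotated gene begins. The capitals mark GGGACTTTC, the letters of an NF-kB type motif, on its reverse strand in *Madcam1* (chr10:79664445-79664543, plus strand) and *Ltb* (chr17:35194376-35194438, plus strand), and CACCTG, the letters of an E-box, in *Glycam1* (chr15:103565251-103565331, minus strand).
Madcam1: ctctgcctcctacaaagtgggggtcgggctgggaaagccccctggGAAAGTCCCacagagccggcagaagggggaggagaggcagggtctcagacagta
Ltb: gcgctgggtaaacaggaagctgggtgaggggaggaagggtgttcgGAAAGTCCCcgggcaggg
Glycam1: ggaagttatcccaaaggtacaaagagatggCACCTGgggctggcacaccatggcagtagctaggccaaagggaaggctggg

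Motifs were searched on both strands, and none of the letter strings contains another. GGGACTTTC was present in 4 of the 38 windows, those of *Ltb*, *Madcam1* and *Ncr1*, and in 0.353% of all 32851 windows. CACCTG was present in 19 of the 38 windows, from 17 genes, and in 20.2% of all windows. The ETS type letters AGGAAGTG were present in 5 of the 38 windows and 4.07% of all, the RUNX type letters ACCACA in 8 and 16.8%, and TATAAA in 5 and 13.6%. The CRE-like letters TGACATCA were present in 1 window and 3.62% of all, and the octamer ATGCAAAT in 0 windows and 1.74%. These are matches of letters, and binding was not measured.

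The libraries held from 33141769 to 49477671 estimated counts. *Cebpa* had 448, 465 and 498 CPM, a library-size scaled count that was normalized by the TMM method, in the 3 Cebpa_fl/fl libraries and 37.7, 45.8 and 37.2 in the 3 Cebpa_ASKO libraries, given here and throughout in the order 1, 2, 3. It was lower in Cebpa_ASKO by a log2 fold change of -3.55 (quasi-likelihood test of edgeR, Benjamini-Hochberg adjusted p = 0.000163). Libraries were then compared by the number of genes, among 14005 with a mean of at least 1 CPM, that were at least 4 times as high as in any other library. There were 103 such genes in Cebpa_fl/fl 1, 2 in Cebpa_fl/fl 2, 1 in Cebpa_fl/fl 3, 0 in Cebpa_ASKO 1 and 2, and 6 in Cebpa_ASKO 3. Of the 37 lymphocyte and lymph node genes with a mean of at least 1 CPM, 25 were among the 103, and none was among those of any other library. The mean includes Cebpa_fl/fl 1, so a gene could pass this limit through that library alone, as *Glycam1* did. Cebpa_fl/fl 1 had been singled out when the genes were chosen, so the count describes it and is not a test.

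Every comparison is given with all 6 libraries and with the 5 that remain without Cebpa_fl/fl 1, as was set together with the list of genes. Summed over the 39 genes, the level was 1235, 213 and 122 CPM in Cebpa_fl/fl and 138, 122 and 167 CPM in Cebpa_ASKO, which is 0.121% of all counts in Cebpa_fl/fl 1 and between 0.0117% and 0.0216% in the others. Cebpa_fl/fl 1 was the highest library for 37 of the 39 genes. The exceptions were *Cxcl13* and *Ncr1*, for which Cebpa_fl/fl 2 was highest.

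**Figure D1:**
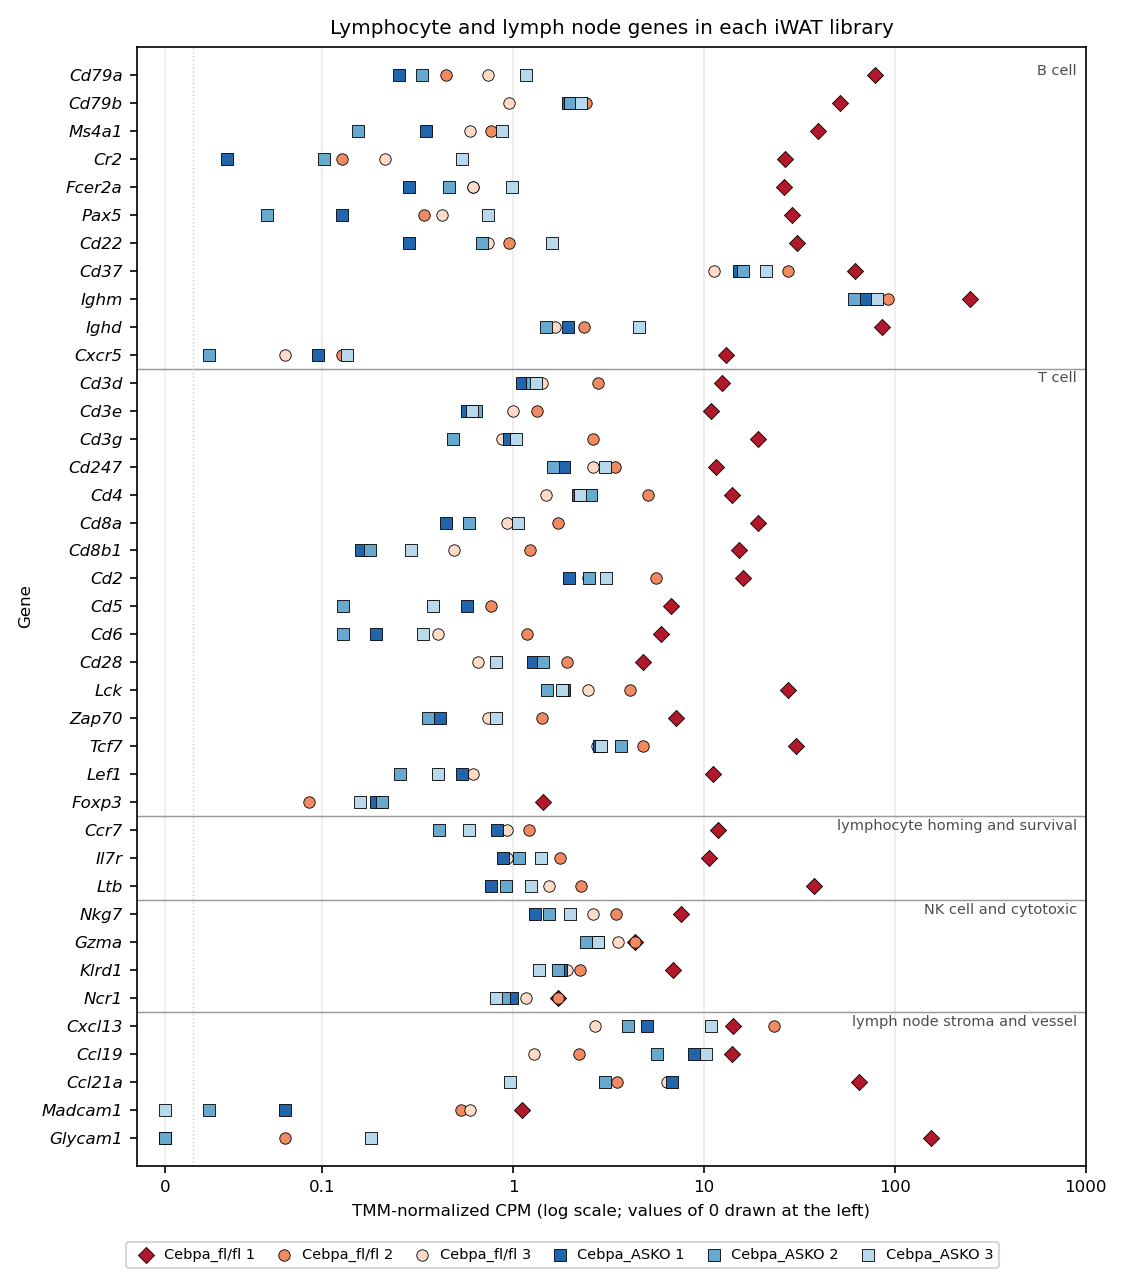
Level of each of the 39 genes (rows, grouped by role) in each library, as TMM-normalized CPM on a log axis, with values of 0 drawn at the left edge. Diamonds are Cebpa_fl/fl 1, circles the other Cebpa_fl/fl libraries and squares Cebpa_ASKO; the diamond stands to the right of the other 5 points for 37 genes.

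Taken gene by gene, the B cell genes had the highest median ratio of Cebpa_fl/fl 1 to the median of the other libraries among the 5 roles, 44.3, while their sum, in which *Ighm* weighs most, was 7.58 times as high. *Cd79a*, the gene of a signalling chain of the B cell receptor (chromosome 7, 24897381 to 24902197, GRCm38), was at 79.0, 0.445 and 0.742 CPM in Cebpa_fl/fl and at 0.254, 0.332 and 1.17 CPM in Cebpa_ASKO. Without the first control the genotypes overlapped, and the highest of the 5 libraries was Cebpa_ASKO 3. The same library was the highest of those 5 for *Ighd*, the constant region of IgD, at 4.58 CPM against 85.7 in Cebpa_fl/fl 1 and 1.48 to 2.35 in the other 4.

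*Ighm*, the constant region of IgM, had the highest mean TPM of the B cell genes, at 83.3 TPM over all libraries. Its levels were 248, 92.0 and 62.1 CPM in Cebpa_fl/fl and 70.6, 61.4 and 80.3 CPM in Cebpa_ASKO, so that the genotypes overlapped with or without Cebpa_fl/fl 1. *Cd37*, a tetraspanin of B cells and other leukocytes, was at 61.6, 27.6 and 11.3 CPM against 15.3, 16.0 and 21.2 CPM. Relative to the median of the other 5 libraries, Cebpa_fl/fl 1 held 3.52 times as much *Ighm* and 3.85 times as much *Cd37*, the smallest ratios among B cell genes. The other 9 lay between 26.0 times for *Cd79b*, the partner of *Cd79a*, and 210 times for *Cr2*, the complement receptor of B cells and follicular dendritic cells. Between these were *Ms4a1* (CD20), *Fcer2a* (CD23), *Pax5*, the transcription factor of B cell identity, *Cd22*, an inhibitory receptor, and *Cxcr5*, the receptor that leads B cells into follicles, at 138 times.

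Transcripts of *Ighm* were divided between a form with 4 exons, which ends as secreted IgM does, and a form with 6 exons that carries the membrane anchor. The membrane form took 69.4%, 74.5% and 57.4% of *Ighm* TPM in Cebpa_fl/fl and 68.6%, 73.4% and 70.6% in Cebpa_ASKO. Cebpa_fl/fl 1 lay within the range of the others in this share, although its level of *Ighm* was above them all. The membrane form of *Ighd* took 87.5% to 100% in all 6 libraries.

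None of the 9 B cell genes tested was called, which throughout means an adjusted p below 0.05. With 6 libraries all 9 had a negative log2 fold change, with a median of -3.62. With 5 libraries 5 of 9 were negative and the median was -0.07. *Cd79a* went from -5.45 (SE 2.10, adjusted p = 0.214, edgeR) to 0.0036 (SE 0.71, adjusted p = 0.999), and *Ighm* from -0.92 (SE 0.49, adjusted p = 0.362) to -0.12 (SE 0.20, adjusted p = 0.853). *Ighd*, *Cd79b* and *Cd22* also turned from lower to higher in Cebpa_ASKO, none of them called in either fit. Summed, B cell genes were at 300 ± 341 CPM in Cebpa_fl/fl (SD, n = 3) and 96.1 ± 16.4 CPM in Cebpa_ASKO (SD, n = 3), and without Cebpa_fl/fl 1 the control level was 104 ± 34.1 CPM (SD, n = 2). The sum in Cebpa_ASKO was 32.1% of the control with 6 libraries and 92.9% with 5.

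Summed T cell genes were below summed B cell genes in CPM in every library. For 5 of the 15 T cell genes tested, all Cebpa_ASKO libraries lay below the lowest control, beside 13.2% of all genes with 6 libraries. *Cd3e*, a chain of the CD3 complex, was at 10.8, 1.34 and 0.996 CPM in Cebpa_fl/fl and at 0.571, 0.638 and 0.606 CPM in Cebpa_ASKO. *Cd3d*, another chain, was at 12.5, 2.80 and 1.42 CPM against 1.11, 1.25 and 1.32 CPM. For both, all Cebpa_ASKO libraries lay below all Cebpa_fl/fl libraries.

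The genotypes were also apart for *Lck*, the kinase that starts T cell receptor signalling, with 27.7, 4.07 and 2.48 CPM against 1.84, 1.51 and 1.80 CPM. *Cd8b1*, a chain of the CD8 co-receptor of cytotoxic T cells, was at 15.3, 1.23 and 0.487 CPM against 0.158, 0.179 and 0.292 CPM. *Cd6*, a receptor that tunes T cell activation, was at 5.95, 1.19 and 0.403 CPM against 0.190, 0.128 and 0.337 CPM. In these 5 genes Cebpa_fl/fl 3 was the lowest control, and its distance from the highest Cebpa_ASKO library was small beside that of Cebpa_fl/fl 1.

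*Cd2*, an adhesion receptor with the highest mean TPM of the T cell genes (6.48 TPM), was at 16.1, 5.62 and 2.48 CPM against 1.97, 2.50 and 3.05 CPM. *Cd3g* was at 19.2, 2.61 and 0.869 CPM against 0.951, 0.485 and 1.03 CPM. In both genes Cebpa_fl/fl 3 fell within the range of Cebpa_ASKO. The genotypes likewise overlapped for *Cd247* (the CD3 zeta chain), *Cd4*, *Cd8a*, *Cd5*, *Cd28*, the co-stimulatory receptor, *Zap70*, the kinase after *Lck*, and *Tcf7* and *Lef1*, transcription factors of naive T cells. *Foxp3*, the factor of regulatory T cells, was at 1.43 CPM in Cebpa_fl/fl 1 and at 0.0848 to 0.204 CPM elsewhere. The ratio of Cebpa_fl/fl 1 to the median of the other 5 libraries ran from 3.78 for *Cd28* to 52.4 for *Cd8b1*, with a median of 12.8.

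All 15 T cell genes tested had a negative log2 fold change in both fits, with a median of -2.73 with 6 libraries and -0.78 with 5, and none was called. *Lck* was at -2.73 (SE 0.92, adjusted p = 0.164, edgeR) and -0.93 (SE 0.29, adjusted p = 0.203). *Cd8b1* was at -4.71 (SE 1.41, adjusted p = 0.125) and -1.998 (SE 0.56, adjusted p = 0.159). Both the fold change and its SE were smaller without Cebpa_fl/fl 1. Summed T cell genes were at 90.6 ± 107 CPM in Cebpa_fl/fl (SD, n = 3), at 29.0 ± 13.4 CPM without Cebpa_fl/fl 1 (SD, n = 2), and at 18.2 ± 1.73 CPM in Cebpa_ASKO (SD, n = 3). The sum in Cebpa_ASKO was thus 20.1% of the control with 6 libraries and 63.0% with 5. The B cell sum divided by the T cell sum was 3.24, 3.32 and 4.07 in Cebpa_fl/fl and 5.35, 4.74 and 5.65 in Cebpa_ASKO. *Ighm* weighs most in the B cell sum, so this quotient does not describe most B cell genes. Gene by gene, Cebpa_fl/fl 1 exceeded the median of the others by a median ratio of 44.3 in B cell genes and 12.8 in T cell genes.

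Genes of homing and survival gave the largest summed ratio between Cebpa_fl/fl 1 and the median of the others, 18.8 times. *Ltb*, the gene of lymphotoxin beta, a lymphocyte signal to node stroma, was at 37.8, 2.27 and 1.55 CPM in Cebpa_fl/fl and 0.761, 0.919 and 1.23 CPM in Cebpa_ASKO. *Ccr7*, the receptor that guides lymphocytes into the node, was at 11.9, 1.21 and 0.932 CPM against 0.824, 0.408 and 0.584 CPM. For both genes all Cebpa_ASKO libraries lay below the lowest control, beside 13.2% of all genes with 6 libraries. *Il7r*, the receptor of the survival cytokine IL-7, was at 10.6, 1.76 and 0.932 CPM against 0.887, 1.07 and 1.39 CPM, with overlap. *Ltb* had a log2 fold change of -3.82 (SE 1.30, adjusted p = 0.167, edgeR) with 6 libraries and of -0.97 (SE 0.34, adjusted p = 0.255) with 5.

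In the NK cell and cytotoxic genes Cebpa_fl/fl 1 stood least apart. For all 4 the highest Cebpa_ASKO library lay below the lowest Cebpa_fl/fl library, beside 13.2% of all genes with 6 libraries. *Gzma*, the gene of granzyme A, was at 4.34, 4.32 and 3.54 CPM in Cebpa_fl/fl and at 2.79, 2.40 and 2.78 CPM in Cebpa_ASKO. *Ncr1*, the NK cell receptor NKp46, was at 1.71, 1.72 and 1.17 CPM against 0.983, 0.894 and 0.808 CPM. For these genes the first 2 controls were nearly equal.

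*Nkg7*, a protein of cytotoxic granules, was at 7.55, 3.48 and 2.63 CPM against 1.30, 1.53 and 1.98 CPM. *Klrd1* (CD94), a chain of NK cell receptors, was at 6.88, 2.25 and 1.91 CPM against 1.77, 1.71 and 1.37 CPM. The log2 fold change of *Gzma* was -0.61 (SE 0.19, adjusted p = 0.132, edgeR) with 6 libraries and -0.57 (SE 0.21, adjusted p = 0.283) with 5, and that of *Nkg7* was -1.50 (SE 0.43, adjusted p = 0.114) and -0.92 (SE 0.29, adjusted p = 0.197). Without Cebpa_fl/fl 1, the 4 genes summed to 10.5 ± 1.78 CPM in Cebpa_fl/fl (SD, n = 2) and to 6.77 ± 0.210 CPM in Cebpa_ASKO (SD, n = 3), or 64.5% of the control, against 48.97% with all 6 libraries.

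The 5 genes of node stroma and vessels did not share a pattern. *Glycam1*, a mucin of high endothelial venules that L-selectin on lymphocytes binds (chromosome 15, 103562759 to 103565081), was at 155, 0.0636 and 0 CPM in Cebpa_fl/fl and at 0, 0 and 0.180 CPM in Cebpa_ASKO. Its letters before the start are shown above because its 372 TPM in Cebpa_fl/fl 1 was the highest of the 39 genes in that library, above *Ighm* at 190 TPM and *Ccl21a* at 104 TPM. *Glycam1* is also known as a milk protein of the mammary gland, whose ducts run through this fat pad. The 8 mammary epithelium genes examined summed to 815 CPM in Cebpa_fl/fl 1 and to between 658 and 1675 CPM in the other 5, and for none of them was Cebpa_fl/fl 1 the highest library. These are general genes of that epithelium, and the source of the *Glycam1* reads was not tested. *Chst4*, an enzyme of high endothelial venules that sulfates L-selectin ligands, was at 1.00 CPM in Cebpa_fl/fl 1 and at 0 in the other 5. It was picked, after its values were seen, from a list of 10 other genes of node stroma and vessels. In that list Cebpa_fl/fl 1 was the highest library for 4 genes. The median ratio to the median of the others was 0.957, over genes for which that median was above 0, which leaves out *Chst4*.

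*Ccl21a*, a chemokine that draws cells with CCR7, was at 64.6, 3.52 and 6.38 CPM in Cebpa_fl/fl and at 6.78, 3.04 and 0.965 CPM in Cebpa_ASKO, with overlap. Near-identical copies share its reads, and the 6 copies together gave 71.0, 6.40 and 8.71 CPM against 11.5, 5.95 and 2.65 CPM. *Cxcl13*, the chemokine that draws cells with CXCR5, was at 14.2, 23.2 and 2.69 CPM against 5.04, 3.98 and 10.9 CPM. Macrophage genes were also highest in Cebpa_fl/fl 2 and, within Cebpa_ASKO, in replicate 3, with sums of 1737, 3190 and 1177 CPM against 1931, 1956 and 2651 CPM. Their part in the values of *Cxcl13* was not tested.

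*Madcam1* was the only one of the 39 genes that edgeR called with all 6 libraries. It is the gene of an addressin (chromosome 10, 79664559 to 79668537) that venules of mucosal lymphoid tissue display to lymphocytes. Its levels were 1.11, 0.530 and 0.593 CPM in Cebpa_fl/fl and 0.0634, 0.0255 and 0 CPM in Cebpa_ASKO, from 103 counts in the controls and 3 in Cebpa_ASKO. The genotypes were apart with all 6 libraries, and so necessarily also without Cebpa_fl/fl 1. The log2 fold change was -4.66 (SE 0.76, adjusted p = 0.0202, edgeR), and without Cebpa_fl/fl 1 it was -4.26 (SE 0.78, adjusted p = 0.0550), which was not called. Nor was it called without Cebpa_ASKO 1 or without Cebpa_ASKO 2, where the log2 fold change was -5.66 (adjusted p = 0.0610, edgeR) and -4.65 (adjusted p = 0.107). The pooled level in Cebpa_ASKO was 3.60% of that in Cebpa_fl/fl, with an exact 95% interval from 0.730% to 10.8% that covers counting error only. *Madcam1* passed the filter on low counts only through the control libraries.

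*Ccl19*, the other chemokine read by CCR7 (chromosome 4, 42754525 to 42756577), was the only gene of the 39 to be higher in Cebpa_ASKO with 6 libraries, at 14.1, 2.20 and 1.29 CPM in Cebpa_fl/fl and 8.87, 5.64 and 10.2 CPM in Cebpa_ASKO. Cebpa_fl/fl 1 lay above the Cebpa_ASKO libraries and the remaining controls lay below them. The log2 fold change was 0.49 (SE 0.84, adjusted p = 0.818, edgeR) with 6 libraries and 2.24 (SE 0.38, adjusted p = 0.0413) with 5, where *Ccl19* was called. DESeq2 gave 2.23 in the 5 libraries (adjusted p = 4.28e-07). With any library other than Cebpa_fl/fl 1 left out, *Ccl19* was not called. Its log2 fold change was then between 0.018 and 0.69, with an edgeR adjusted p from 0.847 to 0.993. Most *Ccl19* reads were assigned to a transcript that the annotation does not class as coding, Ccl19-202, at 12.0, 5.68 and 3.15 TPM in Cebpa_fl/fl and 19.4, 14.4 and 27.5 TPM in Cebpa_ASKO. The coding transcript Ccl19-201 was at 16.5, 0 and 0 TPM against 0.355, 0.909 and 0 TPM, and the coding transcript Ccl19-203 was at 1.34 TPM or less in every library. The call of *Ccl19* in 5 libraries is thus one of the summed gene, carried by Ccl19-202. Together with a near-identical pseudogene, *Ccl19-ps1*, the summed level was 14.5, 2.23 and 1.29 CPM against 8.87, 5.67 and 10.2 CPM.

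**Figure D2:**
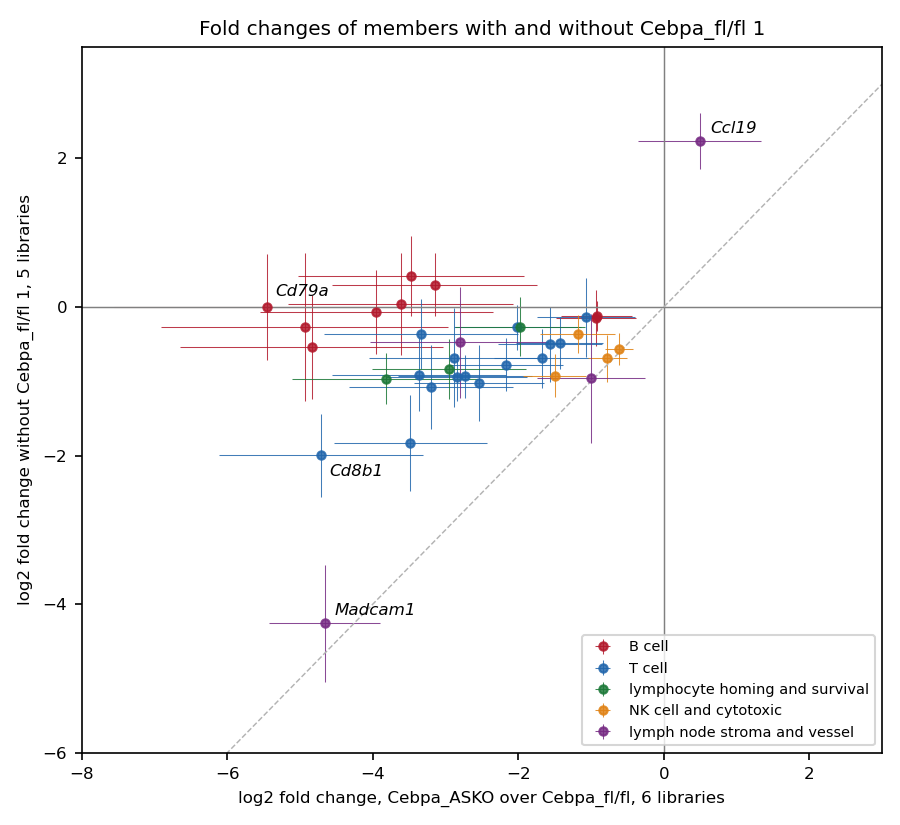
Log2 fold change, Cebpa_ASKO over Cebpa_fl/fl, of the 35 genes tested, with all 6 libraries (horizontal) and without Cebpa_fl/fl 1 (vertical); bars are standard errors, colours are roles and the dashed line marks equal values. Most genes lie left of and above the line, B cell genes near 0 on the vertical axis, *Madcam1* near the line, and *Ccl19* alone above 2 on the vertical axis.

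Across the 35 genes tested, the median log2 fold change was -2.81 with 6 libraries, beside 0.02 over all 16069 genes, and 34 of 35 were negative beside 46.1% of all. With 5 libraries it was -0.54 beside 0.03 over 16282 genes, and 30 of 35 were negative beside 45.5%. An absolute log2 fold change above 1 was seen in 30 genes with 6 libraries and in 6 with 5, and the share of all genes past this limit was not counted. *Cr2*, *Cxcr5*, *Foxp3* and *Glycam1* were removed in both fits by the filter on low counts, and outside Cebpa_fl/fl 1 they were at 0.539 CPM or less. With 6 libraries 1 of 35 was called lower, beside 3.84% of all genes, and 0 were called higher, beside 1.39%, while 21 had an unadjusted p below 0.05, beside 19.8%. With 5 libraries 0 of 35 were called lower, beside 2.72%, 1 was called higher, beside 0.399%, and 9 had an unadjusted p below 0.05, beside 15.8%.

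Groups without overlap were counted in the same way. With 6 libraries 12 of 35 genes had their highest Cebpa_ASKO library below their lowest control, beside 13.2% of all genes, and 0 had the reverse order, beside 12.9%. With 5 libraries the 12 were the same genes, beside 16.4%, and 1, *Ccl19*, had the reverse order, beside 16.6%. Leaving out a library cannot create overlap, so the 12 had to remain, and their return is not a second test. The 12 were 5 of the 15 T cell genes (*Cd3d*, *Cd3e*, *Cd8b1*, *Cd6* and *Lck*), *Ccr7*, *Ltb*, the 4 NK cell and cytotoxic genes and *Madcam1*. None of the 9 B cell genes was among them. DESeq2 gave an adjusted p to 26 of the 39 genes with 6 libraries and called 10 of them lower, beside 6.70% of all genes: *Cd3d*, *Cd3e*, *Cd8b1*, *Cd2*, *Cd5*, *Cd6*, *Zap70*, *Nkg7*, *Gzma* and *Madcam1*. With 5 libraries it gave one to 37, and called only *Madcam1* lower, beside 5.13%, and only *Ccl19* higher, beside 2.54%.

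Further genes of the same cells were examined in lists. Of 13 other B cell genes, Cebpa_fl/fl 1 was highest for 13, with a median ratio of 42.2 to the median of the other libraries, near the 44.3 of the B cell genes above. Of 18 other T cell genes it was highest for 17, with a median ratio of 8.82, and of 10 other NK and cytotoxic genes for 9, with a median ratio of 2.00. Among the 15 genes outside the 39 with the largest ratio of Cebpa_fl/fl 1 to any other library were *Ighg3*, *Ighg1*, *Iglc3*, *Pou2af1*, *Marco*, *Fcmr*, *Blk*, *H2-Eb2*, *Iglc2*, *Nsg2*, *Spib*, *Fcrl1*, *Ighg2b* and *Mzb1*. Most of these are genes of B cells and their antibodies, and *Marco*, at 46.5 times the highest other library, is a scavenger receptor of macrophages in lymph nodes and spleen. By contrast, for none of the genes in the lists for macrophages, adipocytes, skeletal muscle, mammary epithelium, blood and lymphatic endothelium, and fibroblasts was Cebpa_fl/fl 1 the highest library. The same held for red blood cells, while of the 8 granulocyte and mast cell genes it was highest for 3, with ratios to the median of the others up to 2.60 and a list median of 0.717.

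**Figure D3:**
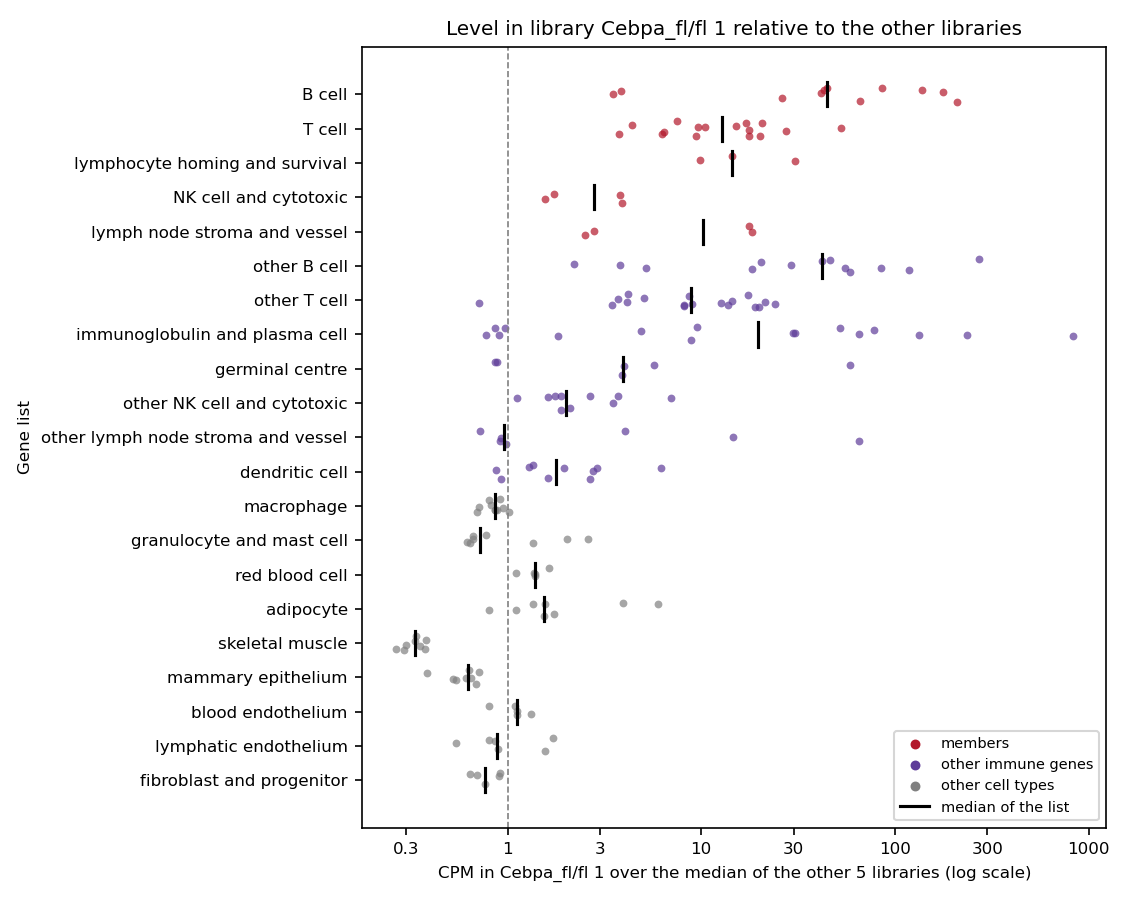
CPM in Cebpa_fl/fl 1 divided by the median of the other 5 libraries (log axis) for each gene of each list (rows); red points are the 39 genes by role, purple points other immune genes, grey points other cell types, black bars list medians and the dashed line a ratio of 1. *Glycam1* and other genes with a median of 0 in the other libraries, and *Ccl21c*, with a ratio of 0, are not drawn; B cell medians lie near 44 and 42 and that of macrophages at 0.865.

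V segment genes were counted as detected from 1 count upward, which is not a count of receptors, and kallisto divides reads among similar segments. Of 218 immunoglobulin V segment genes, 162, 90 and 82 had at least 1 count in Cebpa_fl/fl and 34, 45 and 66 in Cebpa_ASKO, and their summed levels were 71.0, 23.3 and 18.2 CPM against 5.58, 5.11 and 7.05 CPM. The genotypes did not overlap in either measure, and the number detected also depends on depth, which was lower in every Cebpa_ASKO library. Of 144 T cell receptor V segment genes, 88, 26 and 22 were detected in Cebpa_fl/fl and 9, 19 and 26 in Cebpa_ASKO. Their summed levels were 14.3, 2.56 and 1.78 CPM against 1.14, 2.43 and 1.53 CPM, and both measures overlapped between the genotypes.

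Among the genes of antibody and plasma cells, *Igha* and *Jchain* were called lower in Cebpa_ASKO in both fits. *Igha*, the constant region of IgA, was at 42.7, 51.2 and 28.7 CPM in Cebpa_fl/fl and at 3.64, 3.98 and 8.75 CPM in Cebpa_ASKO, and Cebpa_fl/fl 1 was not its highest library. *Jchain*, which joins IgA and IgM into polymers, was at 28.6, 13.6 and 7.90 CPM against 3.11, 2.81 and 3.23 CPM. *Igkc*, the kappa light chain constant region, was at 203, 33.02 and 21.4 CPM against 6.85, 4.98 and 6.33 CPM. The genotypes did not overlap for these 3 genes. Of the 14 genes of this list that were tested, 6 had all Cebpa_ASKO libraries below the lowest control, beside 13.2% of all genes with 6 libraries. The reverse order was seen in 2, beside 12.9%.

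*Igha* had a log2 fold change of -2.89 (adjusted p = 0.00988, edgeR) with 6 libraries and of -2.86 (adjusted p = 0.0343) with 5, and *Jchain* of -2.45 (adjusted p = 0.0329) and -1.82 (adjusted p = 0.0261). *Igkc* was not called with 6 libraries and was called without Cebpa_fl/fl 1, at -2.17 (adjusted p = 0.0104). Of the 14 immunoglobulin and plasma cell genes tested, 2 were called lower with 6 libraries, beside 3.84% of all genes, and 3 with 5, beside 2.72%, and 0 were called higher. Of the other NK cell and cytotoxic genes, *Il2rb*, a receptor chain for IL-2 and IL-15, was called with 6 libraries, at -1.35 (adjusted p = 0.0472, edgeR). In that list 8 of 10 had all Cebpa_ASKO libraries below the lowest control with 6 libraries, beside 13.2% of all genes. With 5 libraries it was again 8, beside 16.4%, and leaving out a library could not have removed any of them. *Il2rb* was at 12.5, 7.82 and 5.95 CPM against 3.58, 3.27 and 3.48 CPM. Some of these calls were lost with 1 Cebpa_ASKO library left out, although the fold changes stayed near those of the fit of 6 libraries. In edgeR, *Igha* was at -2.68 (adjusted p = 0.0558) without Cebpa_ASKO 1 and at -2.72 (adjusted p = 0.0567) without Cebpa_ASKO 2. *Jchain* was at -2.46, -2.41 and -2.52 (adjusted p = 0.141, 0.142 and 0.0867) without Cebpa_ASKO 1, 2 and 3 in turn. *Il2rb* was called in a fit of 5 libraries only without Cebpa_fl/fl 3, at an adjusted p of 0.0335 (edgeR). Its log2 fold change lay between -1.44 and -1.001 in the other fits of 5, with an edgeR adjusted p of 0.0647, 0.0635, 0.170, 0.178 and 0.113 without Cebpa_fl/fl 1 and 2 and Cebpa_ASKO 1, 2 and 3. *Igkc*, not called with 6 libraries, was called without any 1 of the 3 controls, at an adjusted p of 0.0104, 0.0491 and 0.0442, and not without any 1 Cebpa_ASKO library, where its log2 fold change lay between -3.92 and -3.73. No gene of the lists for other B cells, other T cells, germinal centres, other node stroma and vessels, or dendritic cells was called by edgeR in either fit. Of the 17 other T cell genes tested, 10 had all Cebpa_ASKO libraries below the lowest control with 6 libraries, beside 13.2% of all genes. It was also 10 with 5 libraries, beside 16.4%, and 0 had the reverse order in either fit. The summed level of the 18 genes of that list overlapped, at 282, 60.2 and 114 CPM in Cebpa_fl/fl and 117, 145 and 105 CPM in Cebpa_ASKO.

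**Figure D4:**
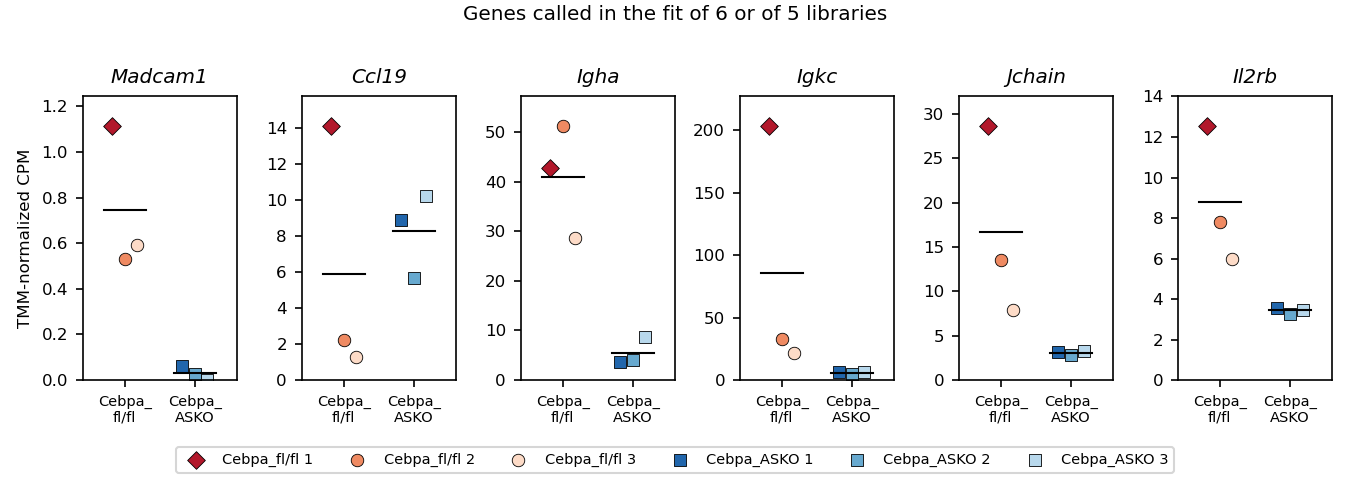
TMM-normalized CPM of the 2 genes of the 39 and the 4 other immune genes that edgeR called with 6 or with 5 libraries, by genotype; each point is 1 library, the horizontal line is the mean of 3, and each vertical axis starts at 0. The Cebpa_ASKO squares lie below all controls for every gene but *Ccl19*, for which they lie between Cebpa_fl/fl 1 and the other controls.

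Other tissue components also differed between the genotypes in these libraries. Summed adipocyte genes were at 16263, 19021 and 16058 CPM in Cebpa_fl/fl and 9316, 7430 and 6964 CPM in Cebpa_ASKO, and summed skeletal muscle genes at 495, 640 and 447 CPM against 2496, 4555 and 1641 CPM. The part of this makeup in the values of the T cell, NK cell and antibody genes was not tested. Within Cebpa_fl/fl the adipocyte sum of replicate 1 lay between those of the other controls, while its lymphocyte sums were above both.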

How the data were processed

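Per the labels and the paper, poly-A libraries were made from iWAT RNA. The authors deposited estimated counts and TPM for each transcript from kallisto (version 0.44.0 in the submitters' processing notes), without further normalization, and a table of TPM summed by gene symbol. Transcripts were matched to GENCODE M21 (GRCm38), and 116816 of 118489 matched. Their estimated counts were summed by symbol and rounded. For *Cd28* the sum covered 96.5% of the authors' TPM, and *Ccl19* and *Ccl21a* each joined 2 gene identifiers. kallisto divides reads among similar transcripts, so such genes are less certain.

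The study names DESeq2. Here edgeR 4.0.16 (R 4.3.3) was used, with TMM scaling, its default low-count filter, the quasi-likelihood test and Benjamini-Hochberg adjustment over all genes tested, and was tested on simulated data. Alternatives were DESeq2 1.42.0, limma 3.58.1 on TPM, other scalings and filters, a replicate block and each library left out. Replicates differed by more than sampling noise. The 39 genes and all lists were chosen with earlier results of these data known. Values per library are given for the 3 genes of each role with the highest mean TPM, for those called or without overlap, and for *Cebpa*. Of other lists, genes called are named. *Ighd*, *Foxp3*, *Cxcl13* and *Chst4* were added after their values were seen. Some genes of the lists are not reported here by name. Promoter letters are from RefSeq.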

Additional observations from a re-analysis of the deposited data

How the results depend on the processing

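Leaving out Cebpa_fl/fl 1 turned the log2 fold change of 4 genes from negative to positive, to 0.0036 for *Cd79a*, 0.30 for *Cd79b*, 0.035 for *Cd22* and 0.42 for *Ighd*; DESeq2 without that library gave 0.30, 0.021 and 0.41 for the last 3. With each library left out in turn, *Cd79a* ran from -6.51 to 0.0036, *Cd79b* from -3.71 to 0.30, *Cd22* from -4.45 to 0.035 and *Ighd* from -4.16 to 0.42. No gene of the 39 called in the fit of 6 libraries changed its direction. The number of the 39 genes called lower was 1 in edgeR, 10 with DESeq2, and 0 with at least 10 counts in every library, with limma on log2(TPM + 1), or with limma on log2(TPM + 0.1), whose filters removed *Madcam1*, so that it was not tested there. It was 0 to 1 with each library left out. The number called higher was 0, and 1 with DESeq2 without Cebpa_fl/fl 1, with 0 to 1 when each library was left out. Over all genes, 617 were called lower and 223 higher. DESeq2 called 1137 and 676, limma on log2(TPM + 1) without a filter 285 and 74, and DESeq2 without Cebpa_fl/fl 1 called 435 higher. With each library left out, 278 to 658 were called lower and 33 to 264 higher. *Madcam1* was at -4.26 (adjusted p = 0.0550, edgeR) without Cebpa_fl/fl 1, -5.66 (0.0610) without Cebpa_ASKO 1 and -4.65 (0.107) without Cebpa_ASKO 2. Over the tested genes of the 39 and all alternatives, 532 values kept direction and, where an adjusted p was given, side of the threshold. DESeq2 gave none to some of these genes, among them *Cd79a* and *Ltb*. Of the remaining values, 7 turned direction, 11 gained a call and 4 lost one. The cause of the other changes was not tested.

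With the replicate number as a block, 0 of the 39 genes were called lower or higher, and 296 and 74 of all genes; *Madcam1* was then at -4.66 (adjusted p = 0.0584, edgeR). Same-numbered libraries were correlated in their deviations at 0.0639, 0.0295 and -0.188. These weak correlations cannot settle whether the numbers pair the mice, which the paper describes as littermates. Leaving out Cebpa_fl/fl 1 leaves 2 controls, and genes below 1 CPM rest on few counts.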

Other observations

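The 5 red blood cell genes summed to 716, 1051 and 567 CPM in Cebpa_fl/fl and to 496, 409 and 362 CPM in Cebpa_ASKO. All 5 had their highest Cebpa_ASKO library below their lowest control, beside 13.2% of all genes, with a median log2 fold change of -0.86, and 0 were called by edgeR. The 10 dendritic cell genes summed to 126, 98.96 and 87.5 CPM against 90.1, 81.3 and 107 CPM, and Cebpa_fl/fl 1 was the highest library for 8 of them, by a median ratio of 1.78 to the median of the others. The 6 germinal centre genes summed to 71.2, 52.0 and 62.5 CPM against 80.0, 74.1 and 87.2 CPM, and of the 5 tested 0 were negative without Cebpa_fl/fl 1, against 3 with it. Gene by gene, Cebpa_fl/fl 1 was the highest library for 4 of the 6. The ratios to the median of the others ran from 0.860 to 58.9, with a median of 3.95. The 10 other genes of node stroma and vessels summed to 75.3, 76.6 and 71.6 CPM against 66.0, 63.0 and 70.8 CPM. *Ltbr*, the lymphotoxin beta receptor, at 51.5 to 61.8 CPM, made up most of this sum, and Cebpa_fl/fl 1 was the highest library for 4 of the 10, *Ccl21b*, *Fut7*, *Chst4* and *Tnfsf11*.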
